A study of Mus musculus with 24 samples.

Results

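The miRNAs described here carry a miRBase number of 1000 or above and were detected on the arrays of this series. A miRNA was included when its name is mmu-miR with such a number and when the scanner software flagged it as detected on at least 6 of the 24 arrays. Of 1881 mouse miRNAs on the array, 1062 carry a number of 1000 or above and 161 of these were included. A further 280 miRNAs with lower numbers, let-7 among them, were detected on at least 6 arrays and served for comparison. They were thus chosen by the detection flags of these arrays, so their detection is described without a test.

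Mature miRNAs were measured on 1-colour Agilent arrays. The liver and the serum came from male C57BL/6NJcl mice. The mice were bought at 5 weeks of age and acclimatized for 1 week. One set then ate CDAHFD, a high-fat diet with defined amino acids and 0.1% methionine that is deficient in choline. It serves as a diet model of non-alcoholic steatohepatitis (NASH), and the control set ate the chow CE-2. Tissue was taken after 1, 2 or 6 weeks of diet, at 7, 8 or 12 weeks of age. Every combination of tissue, diet and week had 2 arrays, which makes 12 groups, or 6 NASH and 6 control arrays per tissue. Labelling started from 100 ng of liver RNA or from 2.5 ng of serum RNA, and serum came from heart blood. Whether the 2 arrays of a group held RNA of different mice is not given in the labels, so the p-values measure a spread between arrays that may be technical.

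A miRNA is cut as a short duplex from a hairpin transcript, and the strand that is kept guides Argonaute proteins to messages that pair with its seed, bases 2 to 8. miRBase numbers miRNAs in the order in which they were submitted. High numbers therefore mostly mark miRNAs found late by deep sequencing. Many of them lie in introns, and some are mirtrons, whose hairpin is a spliced intron, or overlap repeats or tRNA genes. For many of them processing by Drosha and Dicer has not been shown, and their names are used here as labels of array probes.

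Mature sequences of 140 of the 161 miRNAs were found in the RefSeq table of build GRCm38.p6. The first set below shows guanine-rich miRNAs among those with higher levels in NASH liver or serum. miR-5128, in the third set, also rose in liver and has a guanine share of 43.5%. Capitals mark the seed, and every sequence is written 5′ to 3′.

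miR-7118-5p: uGGGGAAGgcgggagagggaac
miR-3102-5p: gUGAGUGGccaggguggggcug
miR-2861: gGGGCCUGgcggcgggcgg
miR-8110: aAGCGUGGauugggggggggg
miR-6931-5p: uGGGGUGGggagugggggacu
miR-8109: gCGCCGCGugccggccgcggg

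The second set shows some of the miRNAs with lower levels in NASH liver, of which the first 3 share the letters AUCCCA. miR-6366 and miR-6368, which fell in liver too, are not shown and have guanine shares of 45.5% and 57.1%. The start of these 3 sequences resembles the T arm of tRNAs.

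miR-5100: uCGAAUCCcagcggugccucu
miR-3968: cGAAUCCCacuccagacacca
miR-3963: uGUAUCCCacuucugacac
miR-6412: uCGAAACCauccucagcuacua

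The third set shows the letters GAUGGCU, which lie in the B2 repeat family, in miR-5128 and 2 relatives. These miRNAs stood far higher on serum than on liver arrays.

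miR-5128: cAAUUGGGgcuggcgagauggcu
miR-3473b: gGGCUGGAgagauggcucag
miR-3473e: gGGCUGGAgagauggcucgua

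The letters AUCCCA occurred in 3 of the 140 sequences (2.14%) and in 7 of all 1674 distinct mature sequences of the table (0.42%). GAUGGCU occurred in 4 of the 140 (2.86%), the fourth being miR-3473a, and in 4 of all 1674 (0.24%). Both motifs were picked after the sequences had been read and were searched on the RNA strand. Shared seeds were few. GGCUGGA joined miR-3473b and miR-3473e, UGGGAAG joined miR-3547-5p and miR-6368, GAGGGAG joined miR-6965-5p and miR-7047-5p, and GGGGAGG joined miR-7030-5p and miR-7075-5p.

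In the same build, 111 of the 140 sequences (79.3%) lay inside the span of a protein-coding gene on either strand, against 82.7% of all 981 mature miRNAs of the table numbered 1000 or above and 45.8% of the 698 with lower numbers. miR-7118-5p lies at chr15:89162882-89162903 on the minus strand inside Plxnb2, and miR-5128 at chr2:37688212-37688234 on the minus strand inside Strbp. miR-5100 lies at chr11:60728698-60728718 on the plus strand inside Mief2, and miR-3968 at chr11:115447969-115447989 on the minus strand inside Trim80. miR-2861 at chr2:32712819-32712837, miR-8110 at chr8:89024791-89024811 and miR-6412 at chr10:122648412-122648433 lie in no protein-coding span. Exons and introns were not told apart here.

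The 161 miRNAs were rich in guanine. Their median GC content was 61.9% and their median guanine share 41.7%, and 45 of 140 (32.1%) held a run of at least 4 guanines. The 222 sequences found among 276 lower-numbered miRNAs tested in a tissue had medians of 47.6% and 22.7%, and 6.3% of them held such a run. All 981 table entries numbered 1000 or above had medians of 55.0% and 28.6%, and 14.3% held such a run.

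Of the 161 miRNAs, 116 were detected on arrays of both tissues, 18 on liver arrays alone and 27 on serum arrays alone. All 24 arrays detected 35 of them. At the edge of the rule, 7 miRNAs were detected on exactly 6 arrays, while 13 further miRNAs numbered 1000 or above were detected on 5 arrays and were left out. In all, 66 such miRNAs were seen on 1 to 5 arrays and 835 on none.

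NASH arrays detected more of the 161 miRNAs than control arrays in both tissues. On liver arrays the number was 93.8 ± 6.85 (SD, n = 6) with chow, from 84 to 103, and 119 ± 3.82 (SD, n = 6) with the NASH diet, from 114 to 122. On serum arrays it was 95.3 ± 20.8, from 68 to 119, against 118 ± 10.4, from 107 to 131. The liver groups did not overlap and the serum groups did. Counted over all 1062 miRNAs numbered 1000 or above, a set that detection did not choose, the number was 98 ± 8.85 against 121 ± 3.87 in liver (difference 23.2). Diet labels were permuted within each week in an exact two-sided permutation test, and p was 0.00926, which no arrangement of the arrays can go below. Serum arrays detected 103 ± 24.3 against 134 ± 21.6 of them (difference 31.3, exact permutation p = 0.0185). The comparison miRNAs moved the same way, from 188 ± 12.2 to 220 ± 8.73 detected on liver arrays and from 190 ± 23.2 to 207 ± 15.4 on serum arrays.

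**Figure D1:**
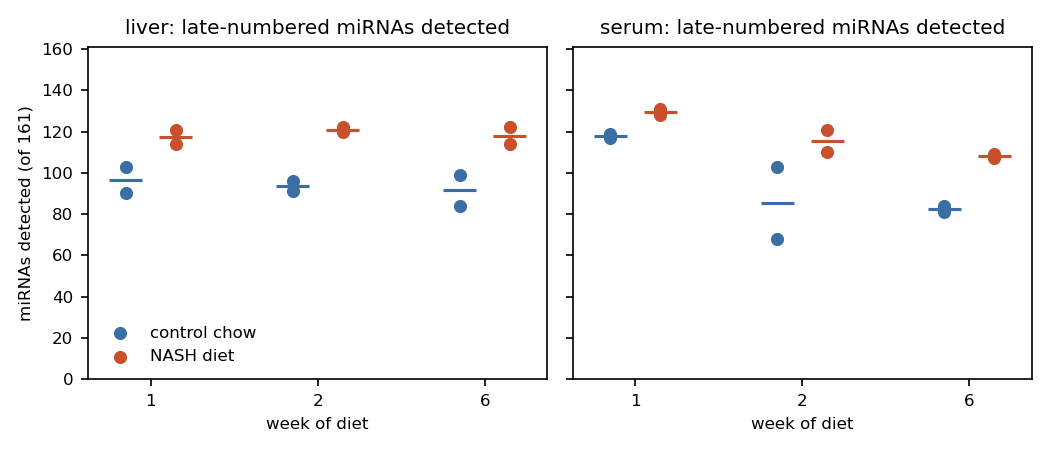
Number of the 161 late-numbered miRNAs detected on each array (vertical axis) by week of diet (horizontal axis), in liver (left) and serum (right); points are arrays and bars are the means of 2 arrays. The liver NASH arrays lie between 114 and 122, above all liver control arrays, whereas the serum control arrays spread from 68 to 119.

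Array brightness differed between diets as well. Brightness was taken from lower-numbered miRNAs alone, as the log2 of the 75th percentile of their signal, over probes that every one of the tissue's 12 arrays measured well above background. It was 0.375 log2 units higher on NASH than on control arrays in liver (9.63 ± 0.41 against 9.26 ± 0.343, SD, n = 6, exact permutation p = 0.139) and 0.753 higher in serum (8.91 ± 0.383 against 8.16 ± 0.712, SD, n = 6, exact permutation p = 0.0185). Its part in the detection counts was not tested. Every slide held control arrays in 2 of its columns and NASH arrays in the others, so the effects of diet and of column cannot be told apart.

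Levels below are log2 signals after each array was divided by its own 75th percentile over bright probes. Signals below a floor, -5.47 in liver and -4.71 in serum, were set to it, and values at the floor have no order. A miRNA was tested in a tissue when at least 6 of its 12 arrays detected it, which held for 118 of the 161 miRNAs in liver, 116 in serum, 75 in both and 2 in neither. Values at the floor made up 36.5% of those of the tested late-numbered miRNAs in liver and 27.9% in serum. A diet effect is the NASH minus control difference averaged over the 3 weeks, fitted with limma over all miRNAs tested in the tissue, and an adjusted p below 0.05 counts as passing.

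In liver, 27 of 118 late-numbered miRNAs rose and 14 fell with the NASH diet. Over all 336 miRNAs tested in liver 26.2% rose and 23.8% fell, against 22.9% and 11.9% of the late-numbered ones, and this difference was not tested. Of the 27 that rose, 5 had all control values at the floor, and 1 of these 5, miR-3081-5p, was detected on no control array. Of the 14 that fell, 6 had all NASH values at the floor, so the sizes of these 11 differences depend on the floor. Among the 61 late-numbered miRNAs detected on all 12 liver arrays, 12 rose and 11 fell, beside 22.9% and 32.6% of all 218 such miRNAs. All 6 NASH arrays lay above all 6 control arrays in 11 of the 118 and below them in 7, beside 12.5% and 12.2% of all tested. The median diet effect was 0.04 over the 118 and 0.01 over all tested. In bulk liver, a change in the share of a cell type and a change in RNA per cell cannot be told apart.

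The 6 miRNAs with the largest rise in liver are taken in turn. The level of miR-7118-5p had a lowest, median and highest value of -5.28, -3.95 and -2.68 on the 6 control arrays and of -2.21, -1.69 and -1.25 on the 6 NASH arrays. The diets did not overlap, and the rise was 4.97-fold (log2 difference 2.31, SE 0.21, limma adjusted p = 1.27e-04). All arrays detected it, and all 6 NASH arrays lay above the control mean of their week.

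miR-5128, whose last letters match the B2 motif, ranged from -4.77 to -2.46 (median -4.26) on control arrays and from -2.50 to -1.26 (median -2.03) on NASH arrays. The groups met at their edges, where a control array of week 6 at -2.46 lay just above the lowest NASH array. The difference was 2.05 (SE 0.35, limma adjusted p = 0.00275), a 4.14-fold rise. miR-3102-5p had a wider control spread, from -5.47 to -1.51 (median -3.40), than its NASH spread, from -2.19 to -0.68 (median -1.65). Its rise of 1.91 (SE 0.45, limma adjusted p = 0.0114) came with overlapping groups.

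miR-2861, which has been linked to osteoblast differentiation, was detected on 4 of 6 control and on 6 of 6 NASH liver arrays. Its control levels ran from -5.47 to -3.79 (median -5.17) and its NASH levels from -3.54 to -2.64 (median -3.18), with no overlap. The difference was 1.78 (SE 0.26, limma adjusted p = 0.00124), and the control end rests in part on the floor. miR-8110, which ends in a run of 10 guanines, ran from -2.32 to 0.34 (median -0.70) with chow and from -0.29 to 1.41 (median 0.49) with the NASH diet. It rose by 1.39 (SE 0.27, limma adjusted p = 0.00473), with overlapping groups.

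miR-1949 had the smallest standard error of the risen liver miRNAs named here. It lay between -4.38 and -3.97 (median -4.25) on control arrays and between -3.37 and -2.49 (median -2.84) on NASH arrays. The groups were apart, and the difference was 1.36 (SE 0.11, limma adjusted p = 7.98e-05), a 2.57-fold rise. It was not detected on any serum array. The call on miR-7080-5p was the least secure of those named in liver. It was detected on 2 of 6 control and on 6 of 6 NASH arrays, and its difference was 1.37 (SE 0.45, limma adjusted p = 0.0407). Its NASH arrays, where it was higher, brought it into the tested set, so the p-value is no support for the rise. Leaving out any of 9 of the 12 arrays ended that call.

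All 6 NASH arrays and no control array detected 8 of the 161 late-numbered miRNAs in liver, beside 4.08% of all 441 miRNAs. miR-3081-5p, which is among them, stood at the floor on all control arrays and between -5.28 and -3.83 (median -4.24) on NASH arrays. It was at least 1.92-fold higher with the NASH diet. A lower limit with no test is given, because no control array measured it and it reached the tested set through its NASH arrays alone.

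The 6 deepest falls in liver follow. miR-5100 lay between 4.73 and 4.98 (median 4.89) on control arrays and between 3.62 and 4.05 (median 3.80) on NASH arrays. The groups were wide apart, and the level fell to 0.478 of control (log2 difference -1.06, SE 0.04, limma adjusted p = 3.24e-06). miR-3968 lay between 4.29 and 4.65 (median 4.33) with chow and between 3.12 and 3.63 (median 3.46) with the NASH diet, a difference of -1.02 (SE 0.03, limma adjusted p = 7.13e-07). miR-3963 fell from a range of 6.05 to 6.53 (median 6.29) to one of 5.27 to 5.58 (median 5.44), a difference of -0.88 (SE 0.05, limma adjusted p = 2.05e-05). These are the 3 miRNAs that share AUCCCA, and in each of them every NASH array lay below every control array.

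miR-6412 was detected on all 12 liver arrays, but its NASH values all lay at the floor. Its control values ran from -4.80 to -4.14 (median -4.54), and the fitted difference of -0.99 (limma adjusted p = 7.28e-06) depends on where the floor was set. NASH values at the floor have no spread, so this p-value can be too small. miR-6366 ran from 6.97 to 7.64 (median 7.38) with chow and from 6.48 to 6.98 (median 6.76) with the NASH diet, so the groups touched. It fell by 0.63 on the log2 scale (limma adjusted p = 0.0029). Under quantile normalization its sign turned (0.11), and the falls of miR-5100 (-0.13) and miR-3963 (-0.06) no longer passed. miR-6368 differed by -0.62 (SE 0.13, limma adjusted p = 0.00666) with overlapping groups.

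With the percentile over all probes, quantile normalization, median centring and no scaling, 38 of the 41 liver calls had the same sign, including all 27 that rose. The exceptions were the falls of miR-1198-5p, miR-3473c and miR-6366. The split of calls moved with the scaling, from 27 higher and 14 lower to 21 and 22 with quantile normalization, 26 and 20 with median centring and 54 and 6 without scaling. Background correction by normexp gave 10 higher and 45 lower.

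**Figure D2:**
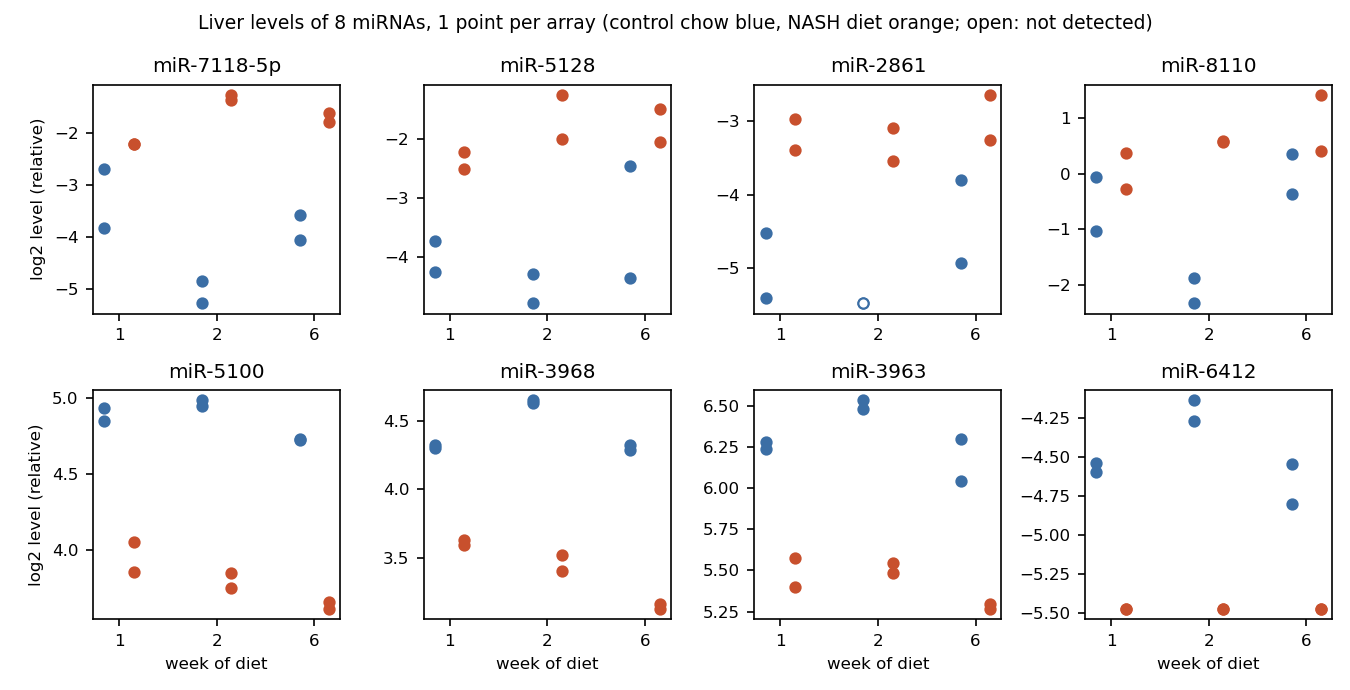
Log2 level relative to the array's 75th percentile (vertical axis, its range differs between panels) by week of diet (horizontal axis) in liver, for 4 miRNAs that rose (top) and 4 that fell (bottom); 1 point per array, open where the miRNA was not detected. The control points of miR-7118-5p spread from -5.28 to -2.68, while those of miR-5100 stay between 4.73 and 4.98; the NASH points of miR-6412 all sit at the floor.

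Week by week, liver calls were most numerous in week 2. In week 1, 9 of 118 late-numbered miRNAs were higher and 8 lower in NASH liver (all tested: 9.23% and 8.04%). In week 2 the counts were 35 higher and 9 lower (24.1% and 16.7%), and in week 6 they were 8 higher and 10 lower (14.9% and 19%). Each weekly contrast rests on 2 against 2 arrays on 1 slide. The difference of miR-7118-5p was 1.04 in week 1, 3.76 in week 2 and 2.14 in week 6. Its control arrays stood at -2.68 and -3.83 in week 1, at -4.85 and -5.28 in week 2 and at -3.58 and -4.07 in week 6. The NASH arrays of week 2, at -1.35 and -1.25, were its highest. miR-3102-5p had differences of 0.88, 3.68 and 1.17, and miR-8110 of 0.59, 2.67 and 0.92. Brightness of the control arrays of week 2 was 9.19 and 9.38, within the range of the other liver control arrays.

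The difference between weeks was itself tested, and 2 of 118 late-numbered miRNAs passed in liver, beside 3.27% of all tested. miR-3968 fell by 0.70 on the log2 scale in week 1, 1.18 in week 2 and 1.17 in week 6 (limma F-test, adjusted p = 0.0199). miR-7241-5p had the same adjusted p of 0.0199 from the limma F-test. It was above the floor on the control arrays of week 2 alone, at -5.17 and -5.07, and at the floor on the other 10 liver arrays. Groups at the floor have no spread, so the p-value of miR-7241-5p is no support for a difference between weeks. miR-7118-5p came close, with a limma F-test adjusted p of 0.0514. The count of 2 ranged from 0 to 12 when 1 array was left out. It was 12 without replicate 1 and 4 without replicate 2 of the week 2 control, 4 without replicate 2 of week 2 NASH and 5 without replicate 2 of week 6 NASH. It was 0 without either week 1 NASH array and 1 without either week 1 control array or replicate 1 of week 2 NASH.

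Liver at week 6 and week 2 lay on the same slide and was compared over both diets. Of 118 late-numbered miRNAs, 0 were higher and 2 lower at week 6, beside 0.595% and 1.49% of all tested, and 26 passed an unadjusted p below 0.05. miR-3968 was lower by -0.33 (SE 0.03, limma adjusted p = 0.00576). miR-7241-5p was lower by -0.18 (SE 0.02, limma adjusted p = 0.02), again through its control arrays of week 2, so that this p-value is no support either. Leaving out 1 array moved the count to between 1 and 12. It was 12 without replicate 1 and 5 without replicate 2 of the week 2 control, 4 without replicate 2 of week 2 NASH, 5 without replicate 1 of the week 6 control and 4 without replicate 2 of week 6 NASH. It was 1 without replicate 2 of the week 1 control, either week 1 NASH array, replicate 2 of the week 6 control or replicate 1 of week 6 NASH.

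In serum, 10 of 116 late-numbered miRNAs rose and 18 fell with the NASH diet. Of all 326 miRNAs tested in serum 7.98% rose and 21.5% fell, and the median diet effect was -0.18 over the 116 and -0.19 over all tested. The diets did not overlap in 2 of the 116 that were higher and 3 that were lower, beside 3.07% and 5.52% of all tested. Among the 59 late-numbered miRNAs detected on all 12 serum arrays, 3 rose and 16 fell, beside 6.63% and 26.5% of all 196 such miRNAs. The balance depended on the scaling, because the median diet effect over those 196 was -0.28 as scaled here, 0.35 with the percentile over all probes, -0.02 with quantile normalization, 0.02 with median centring and 0.45 without scaling. The calls were 15 higher and 1 lower, 9 and 4, 11 and 4, and 20 and 2 under these 4 settings, 14 and 6 with the total signal per miRNA, and 4 and 90 with normexp. With the 4 scalings checked in liver all 10 rises, but 11 of the 18 falls, had the same sign. All 4 raise the median serum diet effect, so a rise could hardly turn sign under them, and normexp was not among them. The count of 28 was 14 without replicate 2 of week 6 NASH, 15 and 18 without replicates 1 and 2 of week 1 NASH, and 17 and 18 without replicates 1 and 2 of week 2 NASH.

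The serum miRNAs that rose furthest were miR-6931-5p, miR-7040-5p, miR-8109, miR-3960, miR-6392-3p and miR-3547-5p. The level of miR-6931-5p, which lies inside Dcakd, ran from -2.47 to -0.31 (median -0.72) on control arrays and from 0.21 to 1.70 (median 0.89) on NASH arrays. No control array reached the lowest NASH array, and the rise was 3.63-fold (log2 difference 1.86, SE 0.32, limma adjusted p = 0.00412). miR-7040-5p was detected on 3 of 6 control and 6 of 6 NASH arrays. Its levels ran from -4.71 to -3.55 (median -4.57) and from -3.12 to -2.55 (median -2.74), also apart, with a difference of 1.60 (SE 0.14, limma adjusted p = 2.59e-04). miR-7040-5p, too, reached the tested set through its NASH arrays, so this p-value is no support for the rise.

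miR-8109, whose GC content is 95.2%, stood at the floor on all 6 serum control arrays, 2 of which detected it. Its NASH arrays ran from -4.71 to -2.04 (median -3.49), and the fitted difference was 1.41 (SE 0.15, limma adjusted p = 7.15e-04). It reached the tested set mainly through its NASH arrays, and its control values at the floor have no spread. The p-value of miR-8109 is therefore no support for a rise, and the size depends on the floor. miR-3960 differed by 1.01 (SE 0.32, limma adjusted p = 0.0494), a call that 10 of the 12 left-out arrays ended. miR-6392-3p and miR-3547-5p differed by 0.83 and 0.81 (limma adjusted p = 0.0105 and 0.0112), and both turned sign under normexp (-0.17 each).

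Among the serum miRNAs that fell, miR-3968 lay between -3.13 and -1.30 (median -2.57) on control arrays and between -4.42 and -3.36 (median -3.74) on NASH arrays. The diets did not overlap, and the difference was -1.42 (SE 0.28, limma adjusted p = 0.00738). miR-5119, which lies inside Cdk12, was detected on all serum arrays and on no liver array. It ran from -3.38 to -1.92 (median -2.77) with chow and from -4.53 to -3.67 (median -4.06) with the NASH diet, a difference of -1.37 (SE 0.20, limma adjusted p = 0.00177). miR-5100 ran from 4.29 to 4.90 (median 4.52) and from 3.15 to 4.32 (median 3.63), so its groups met, and it differed by -0.87 (SE 0.17, limma adjusted p = 0.00683). miR-6366 differed by -1.04 (SE 0.20, limma adjusted p = 0.00738). With the percentile over all probes miR-3968 (-0.74), miR-5100 (-0.20) and miR-6366 (-0.36) no longer passed. The falls of miR-7047-5p (-1.22) and miR-6937-5p (-1.12), with limma adjusted p of 0.0267 and 0.0442, were lost when any of 8 and any of 9 of the 12 arrays, respectively, was left out.

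No late-numbered miRNA passed the limma F-test for a difference between weeks in serum, nor did any of all 326 tested (0%), although 14 of the 116 had an unadjusted p below 0.05. By week, 0 were higher and 0 lower in week 1 (all tested: 0.613% and 1.23%), 2 and 4 in week 2 (2.15% and 6.13%), and 13 and 10 in week 6 (7.67% and 16.6%). In week 1, 5 of the 116 had an unadjusted p below 0.05 in limma. The differences of miR-6931-5p were 1.34, 1.07 and 3.17 in weeks 1, 2 and 6. Serum at week 2 and week 1, which shared a slide, differed in 0 of 116 late-numbered miRNAs over both diets with limma, beside 0% higher and 0.307% lower of all tested, and 9 had an unadjusted p below 0.05. Leaving out 1 array gave 0 to 2 for the difference between weeks and 0 to 1 for week 2 minus week 1. The former was 1 without replicate 1 of week 1 NASH and 2 without replicate 2 of the week 2 control, and the latter was 1 without replicate 1 of the week 2 control.

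The labelled tissues carried their defining miRNAs, and cell type markers moved with diet. All 5 hepatocyte markers listed (miR-122, miR-192, miR-194 and miR-148a among them) were detected on all liver arrays, and their summed log2 level ran from 7.35 to 7.55 with chow and from 6.03 to 6.96 with the NASH diet. In serum, 4 of the 5 were on all arrays, and the sum ran from -0.08 to 2.11 and from 4.26 to 5 (control and NASH). The 4 red cell markers on the array ran in serum from 4.95 to 6.07 and from 3.04 to 6.17. Their liver sum ran from 1.90 to 2.75 and from 0.26 to 2.10. The 3 muscle markers ran in serum from 2.51 to 3.57 and from -0.27 to 1.96. No muscle marker was detected on all 12 liver arrays. In liver the 3 lymphocyte markers ran from -2.48 to -2.07 and from -0.77 to 0.37, and 4 myeloid markers (miR-223-3p, miR-223-5p, miR-142a-3p and miR-142a-5p, the last 2 added after the data were seen), of which no array detected miR-223-5p, from -0.11 to 0.41 and from 0.78 to 1.75. In serum the lymphocyte markers ran from 0.55 to 1.86 and from 1.18 to 3.81, and the myeloid ones from 2.05 to 3.14 and from 1.47 to 2.77. The serum lymphocyte markers went opposite ways. miR-342-3p rose (1.70, limma adjusted p = 0.00177), miR-150-5p fell (-1.32, limma adjusted p = 0.0103), and miR-155-5p was not tested. The 5 stellate cell markers ran from -0.44 to -0.02 and from 0.07 to 0.75 in liver, and the other way in serum, from -0.29 to 0.59 and from -2.30 to -0.62. In liver the 2 endothelium and platelet markers ran from 2.56 to 2.93 and from 1.59 to 2.82, and in serum from -0.88 to 1.26 and from -2.31 to 0.01. The part of these shifts in the diet effects above was not tested.

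Of the 75 late-numbered miRNAs tested in both tissues, 34 passed in neither, 23 in liver alone, 12 in serum alone and 6 in both. Over all 227 miRNAs tested in both tissues these shares were 31.3%, 36.6%, 13.7% and 18.5%. miR-6931-5p rose in both (1.35 in liver, 1.86 in serum). miR-3081-5p is counted among the 6, but its liver level has only the lower limit given above, and its serum difference was 0.78. miR-3968 (-1.02 and -1.42), miR-5100 (-1.06 and -0.87), miR-6366 (-0.63 and -1.04) and miR-1198-5p (-0.38 and -0.62) fell in both, and none passed in opposite directions. miR-3963 came close to joining them, with -0.81 and a limma adjusted p of 0.0517 in serum.

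**Figure D3:**
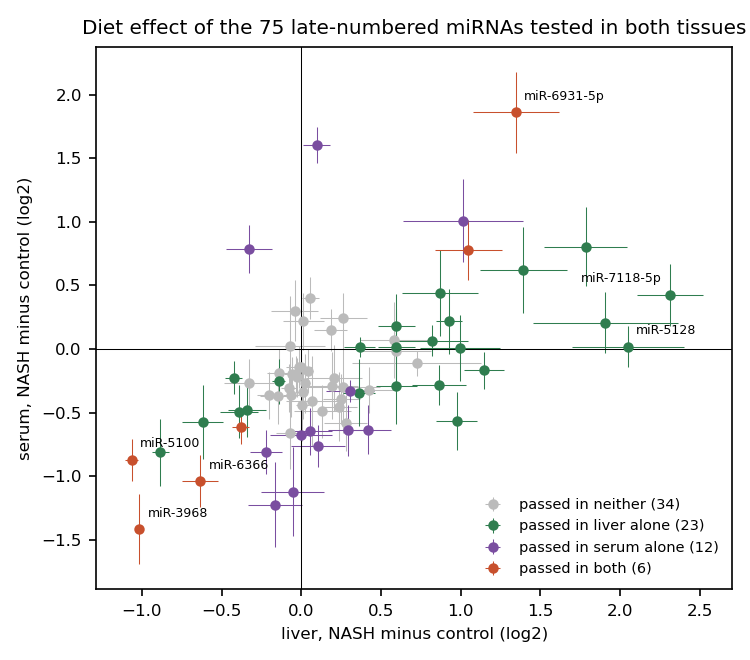
NASH minus control difference in liver (horizontal axis, log2) against that in serum (vertical axis, log2) for the 75 late-numbered miRNAs tested in both tissues; points are miRNAs, bars are standard errors and colours show where the difference passed. miR-6931-5p lies high on both axes, miR-3968, miR-5100 and miR-6366 lie low on both, and miR-7118-5p and miR-5128 lie far to the right near the serum value of 0.

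The serum minus liver difference in diet effect was tested for 227 miRNAs in 1 fit, and 22 of the 75 late-numbered miRNAs passed. In 2 of them the diet effect was higher in serum and in 20 lower, beside 10.1% and 30% of all 227. The median difference was -0.43 over the 75 and -0.38 over all. miR-5128 differed most, with -2.03 (SE 0.37, limma adjusted p = 2.65e-04), and its serum arrays ran from 1.02 to 2.51 with chow and from 1.62 to 2.51 with the NASH diet (difference 0.02, SE 0.16, limma adjusted p = 0.954). miR-7118-5p differed by -1.89 (SE 0.32, limma adjusted p = 1.42e-04), with a serum effect of 0.42 (limma adjusted p = 0.242). miR-3102-5p differed by -1.70 (SE 0.48, limma adjusted p = 0.00948) and miR-7045-5p by -1.54 (SE 0.27, limma adjusted p = 1.92e-04). Most control liver arrays did not detect miR-7045-5p. It reached the tested set through its NASH liver arrays, where it was higher, so its p-value is no support for the difference. The 2 higher in serum were miR-7040-5p (1.51) and miR-8105 (1.11), of which the former reached the tested set of serum through its NASH arrays. The count of 22 was 14 without replicate 2 of week 1 NASH, replicate 1 of week 2 NASH or replicate 2 of the week 6 control in liver, and 12 without replicate 1 of week 6 NASH in liver. It was 8 with the percentile over all probes, 11 with quantile normalization, 10 with median centring and 10 without scaling. In these 4 settings 3, 4, 4 and 3 were higher in serum and 5, 7, 6 and 7 lower, so the direction was less one-sided than as scaled here. miR-3102-5p lost its call under 3 alternatives, and miR-7045-5p under 3.

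In a fit over all 24 arrays with its own scaling, more late-numbered miRNAs stood higher on serum than on liver arrays. In it 21 of 161 were higher and 108 lower in liver than in serum, beside 25.9% and 56.5% of all 441 miRNAs tested. Of the 35 detected on all 24 arrays, 4 were higher and 30 lower in liver, beside 35.7% and 58.1% of all 129 such miRNAs. The median liver minus serum difference of the 35 was -1.83, and -0.62 over the 129. RNA input and, for most arrays, slide went with tissue, and their part cannot be told apart from it. Within the slide that held both tissues, liver week 1 and serum week 6, 101 passed, 12 higher and 89 lower in liver, beside 22.2% and 49% of all 441. The split over all arrays was 40 higher and 59 lower in liver with the percentile over all probes, 41 and 69 with quantile normalization, 24 and 88 with median centring, 44 and 75 without scaling, and 4 and 152 with normexp.

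miR-3968 had the largest excess in liver. Its levels ran from 2.06 to 3.19 (median 2.58) on the 12 liver arrays and from -5.19 to -1.92 (median -3.89) on the 12 serum arrays, a difference of 6.43 (SE 0.17, limma adjusted p = 3.86e-13). miR-6366 was higher in liver by 5.47 (SE 0.17), miR-8117 by 2.71 (SE 0.27) and miR-1839-3p by 2.42 (SE 0.12), and only 3 serum arrays detected the last. The groups did not overlap for any of these 4 miRNAs.

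In the other direction, miR-5128 ran from -5.95 to -2.20 (median -3.66) in liver and from 0.47 to 1.95 (median 1.23) in serum, a difference of -5.47 (SE 0.23, limma adjusted p = 4.17e-11). miR-3473b, which shares the B2 motif with it, ran from -2.69 to -0.83 (median -2.19) and from 1.82 to 3.61 (median 2.71), a difference of -4.77 (SE 0.13, limma adjusted p = 4.23e-13). miR-3082-5p (-5.05) and miR-3473f (-4.69) were lower in liver too. miR-3473f lay at the floor of -5.95 on all 12 liver arrays, 8 of which detected it, so that its difference depends on the floor.

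Whether late-numbered miRNAs followed array brightness was examined after arrays were scaled. The correlation of a miRNA's scaled level with brightness was computed over the 12 arrays of a tissue, with 100000 permutations and adjustment over all miRNAs tested. Scaling divides by a percentile much like the brightness itself. A signal that rises less steeply than brightness is thereby pushed towards a negative r. In liver 0 of 118 rose with brightness and 2 fell with it, beside 2.68% and 0.595% of all tested, and 26 had an unadjusted permutation p below 0.05. Among the 61 detected on all 12 liver arrays 0 rose with it and 2 fell, beside 4.13% and 0.917% of all 218. In serum 0 of 116 rose with it and 1 fell, beside 0.613% and 1.23%, and 19 had an unadjusted permutation p below 0.05. The median r was -0.24 over the late-numbered miRNAs in liver, where 22 of 118 had an r above 0, and 0.12 over the 218 lower-numbered miRNAs, where 122 had. The lower-numbered miRNAs also define brightness, so the sets are not on an equal footing. In serum the medians were -0.19 and -0.29. The liver count depended on the measure. It was 14, 4 above and 10 below 0, with the number of miRNAs detected as brightness, and 49, of which 48 were below 0, with deviations from group means, whose p-values are too small because the 2 arrays of a group deviate as mirror images.

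The scaled level of miR-8102 fell with brightness in liver (Pearson r = -0.85, adjusted permutation p = 0.0246, Spearman rho = -0.87, permutation p = 4e-04, n = 12). Without the 2 arrays farthest from the median brightness r was -0.72 (permutation p = 0.0146), and within diets it was -0.54 on control arrays (exact permutation p = 0.275) and -0.94 on NASH arrays (exact permutation p = 0.00833). miR-6908-5p in liver had an r of -0.83 (adjusted permutation p = 0.0302, rho = -0.81, permutation p = 0.00229), -0.69 without those 2 arrays, and -0.66 and -0.89 within control and NASH arrays. Before scaling, neither signal fell with brightness. The unscaled signal of miR-8102 had an r of 0.20, and that of miR-6908-5p rose with brightness (r = 0.69, adjusted permutation p = 0.0315). miR-1249-3p in serum had an r of -0.80 (adjusted permutation p = 0.0489; rho = -0.83, permutation p = 7.2e-04). It was -0.86 without the 2 arrays and -0.78 on control arrays (exact permutation p = 0.0306), while its NASH arrays all lay at the floor. miR-1249-3p also passed as lower with the NASH diet in serum, where NASH arrays were brighter. Its r over all serum arrays therefore includes the diet difference. Within slides these 3 correlations kept their sign, at -0.80 (8 arrays) and -0.94 (4 arrays) for miR-8102, -0.72 and -0.98 for miR-6908-5p, and -0.80 and -0.99 for miR-1249-3p. Every slide held both diets, so the values within slides include diet differences too. With 1 array left out, the counts ranged from 0 to 3 in liver and from 0 to 5 in serum. In liver 0 remained without replicate 1 of either diet in weeks 1 and 2, replicate 2 of week 1 NASH or replicate 1 of the week 6 control, and 1 without replicate 2 of the week 1 control or of week 6 NASH. In serum 5 passed without replicate 2 of the week 1 control, and 0 without any other array.

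The next miRNAs in rank did not pass. In liver the highest r values belonged to miR-3081-5p (0.60), miR-5121 (0.57) and miR-1839-5p (0.56), with adjusted permutation p from 0.209 to 0.251, and the third lowest to miR-3473g (-0.74, adjusted permutation p = 0.0956). In serum the highest belonged to miR-3473e (0.72), miR-8105 (0.69) and miR-7040-5p (0.66), with adjusted permutation p from 0.10 to 0.179. The lowest after miR-1249-3p were miR-6366 (-0.77) and miR-5119 (-0.74), with 0.065 and 0.10. miR-6366 and miR-5119 are also among the serum miRNAs that fell with diet, and NASH serum arrays were the brighter ones. Within diets their r was -0.74 and -0.78 on control arrays and -0.17 and 0.08 on NASH arrays.

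Before scaling and over all 12 arrays of a tissue, fewer late-numbered signals followed brightness in liver than in serum. The unscaled log2 signal of miRNAs detected on all 12 arrays rose with brightness in 8 of 61 late-numbered miRNAs in liver, beside 50.9% of all 218 such miRNAs and 103 of the 157 lower-numbered ones. In serum 47 of 59 did, beside 74.5% of all 196 and 99 of the 137 lower-numbered ones. The median slope, the log2 signal gained per log2 unit of brightness, was 0.39 for late-numbered and 0.88 for lower-numbered miRNAs in liver, and 0.85 and 0.80 in serum. A slope of 1 means that a signal moves in step with the brightness. Brightness was computed from lower-numbered miRNAs, so slopes near 1 are partly built in for that set. In liver 38 of the 61 had a slope below 0.5, as had 38 of the 157.

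Late-numbered signals were dimmer in liver, with a median log2 signal of 5.66 against 6.96 for the others, while in serum it was 6.39 against 6.23. Where no array lay at the floor, 5 of 35 late-numbered miRNAs followed brightness in liver and 86 of 130 others did, with median slopes of 0.40 and 0.89. Within the 6 diet and week groups the median slope was 0.26 and 0.87 in liver, and 0.53 and 0.94 in serum, so there it was lower for late-numbered miRNAs in both tissues. The difference between the sets was not tested, since miRNAs of an array share its labelling and scan.

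Single slopes show the range. In liver, miR-1839-5p had a slope of 1.13 and followed brightness, while miR-5100, miR-3963 and miR-6366 had slopes of 0.17, 0.16 and 0.14, none of which passed. Within diet and week groups, these 3 slopes were 0.64, 0.53 and 0.32. The slopes of miR-7118-5p (1.66), miR-1949 (1.32) and miR-5128 (1.11) did not pass, and within groups they were 0.28, 0.60 and -0.33. In serum, miR-2861 (1.78), miR-6931-5p (1.75) and miR-3960 (1.67) had the highest slopes, and miR-3968 (0.05) and miR-5119 (0.12) had low ones. Within groups the order was another: 0.00 for miR-2861, -0.33 for miR-6931-5p and 0.35 for miR-3960, against 0.96 for miR-3968 and 0.09 for miR-5119. Slopes over all 12 arrays thus include the diet and week differences of a miRNA.

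**Figure D4:**
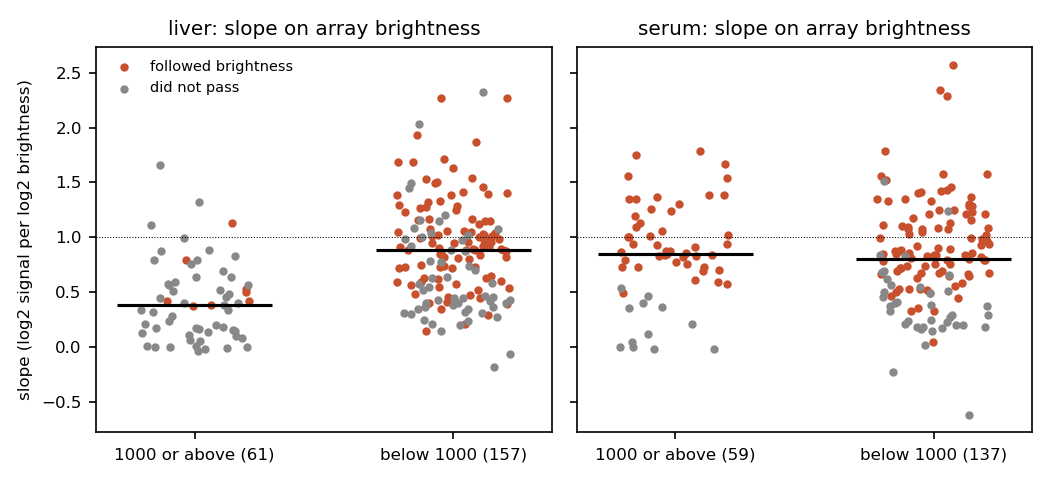
Slope of the unscaled log2 signal on log2 array brightness (vertical axis) in liver (left) and serum (right) for miRNAs detected on all 12 arrays, numbered 1000 or above or below 1000; points are miRNAs, coloured where the signal followed brightness, bars are medians and the dotted line marks a slope of 1. The median of the late-numbered miRNAs is 0.39 in liver and 0.85 in serum, against 0.88 and 0.80 for the others. Brightness was computed from these others, so their slopes are partly built in. The slopes include diet and week differences. Within diet and week groups the late-numbered median was lower in both tissues (0.26 against 0.87 in liver, 0.53 against 0.94 in serum).

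The guanine share of the mature sequence went with several of these values, given here as descriptions across miRNAs that share arrays and probe design. Over the 103 late-numbered miRNAs with a sequence that were tested in liver, guanine share and liver diet effect had an r of 0.45 (rho 0.47). In serum, also over 103, r was 0.24 (rho 0.18). Guanine share and the slope on brightness had an r of 0.43 in liver (53 miRNAs) and 0.56 in serum (54 miRNAs). Among 34 sequences with a run of at least 4 guanines 13 rose and 2 fell in liver, and among 69 without such a run 10 rose and 11 fell. In serum 2 of 39 rose and 6 fell with such a run, and 6 of 64 rose and 11 fell without. Over all 336 miRNAs tested in liver 26.2% rose and 23.8% fell, and over all 326 in serum 7.98% and 21.5%. The split by guanine runs was not made among lower-numbered miRNAs and was not tested. Length had an r of -0.01 with the liver diet effect.

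**Figure D5:**
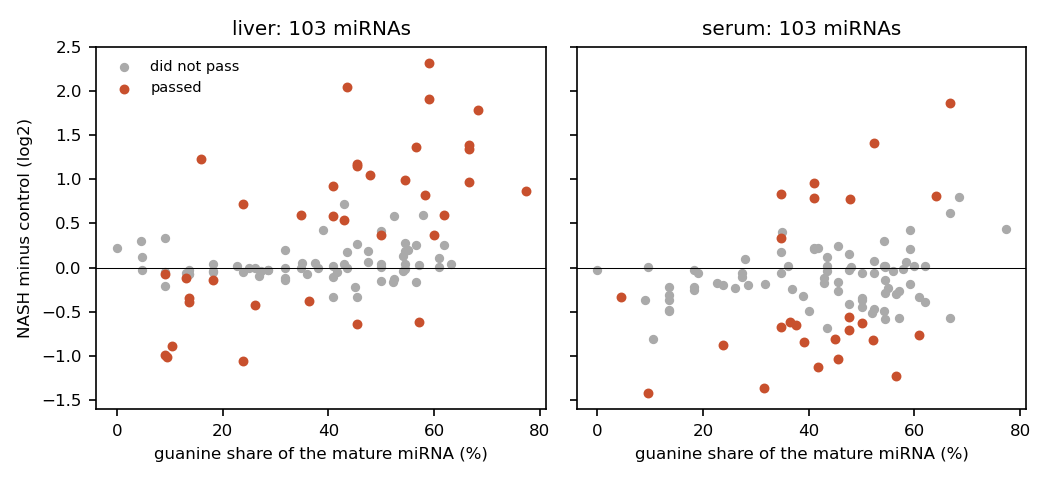
NASH minus control difference (vertical axis, log2) against the guanine share of the mature miRNA (horizontal axis, percent) for 103 late-numbered miRNAs in liver (left) and 103 in serum (right); points are miRNAs, coloured where the difference passed. In liver the differences tend to be higher to the right (r = 0.45), and in serum less so (r = 0.24). miR-5128, which rose in liver, lies at 43.5%, and miR-6366 and miR-6368, which fell in liver, lie at 45.5% and 57.1%.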

How the data were processed

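The deposited values are linear scanner intensity for each spot, extracted with Agilent Feature Extraction 11.5, per the file headers. They also hold detection flags. The processed signal is background-subtracted by the authors' software and not normalized between arrays. Control and outlier-flagged spots were dropped and spots of a probe averaged. Each array was divided by its 75th percentile over those probes that every array of the tissue measured well above background (299 in liver, 253 in serum). A floor was set from the 5th percentile of signals well above background, log2 was taken, and the brightest probe stood for a miRNA. In no late-numbered miRNA called for diet did another probe go the opposite way.

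limma 3.58.1 (R 4.3.3) with eBayes was fitted to the 6 diet and week groups of a tissue, or to 12 groups for tissue contrasts (163 scaling probes), with Benjamini-Hochberg adjustment over all miRNAs tested. Prior degrees of freedom of eBayes were 0.836 (liver) and 1.95 (serum), so miRNAs with arrays at the floor can have p-values that are too small. The scripts were tested on simulated data. The number of arrays limits the precision. No 2 arrays held identical values.

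miRNAs were named by fixed ranks: those given in the selection rule, and the largest diet, week, tissue and brightness values per direction. The miRNAs, lists and ranks were chosen with earlier results of these data known. Serum weeks 1 and 2 shared slide 1, serum week 6 and liver week 1 slide 2, and liver weeks 2 and 6 slide 3. Replicate number is the slide row. Alternatives covered the signal column, background, scaling, floor, detection filter, variance model, blocking and single left-out arrays.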

Additional observations from a re-analysis of the deposited data

Results flagged for a closer look

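In 4 named miRNAs the diet effect differed between serum and liver in the fit of both tissues. miR-5128 (-2.03), miR-7118-5p (-1.89), miR-3102-5p (-1.70) and miR-7045-5p (-1.54) had a lower diet effect in serum, on the log2 scale. miR-7045-5p was detected on 1 of 6 control and 6 of 6 NASH liver arrays, so it reached the tested set through its NASH arrays.

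In 2 miRNAs the liver diet effect differed between weeks, miR-3968 (adjusted p of the limma F-test 0.0199) and miR-7241-5p (0.0199). The latter was above the floor on the 2 control arrays of week 2 alone, so its p-value is no support.

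No array stood apart from the others of its tissue and diet in the number of late-numbered miRNAs detected or in brightness.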

How the results depend on the processing

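Alternatives are grouped by setting, and each count is of late-numbered miRNAs that passed; the cause of a changed count was not tested. With the total signal per miRNA, 4 passed in liver for a difference between weeks (2 as processed here), 8 for week 6 minus week 2 (2), 1 for serum week 2 minus week 1 (0) and 13 for the serum minus liver diet effect (22). With normexp these were 0 and 0 in liver and 79 for the serum weeks, the serum diet count was 94 (28), and miR-6392-3p (-0.1734) and miR-3547-5p (-0.1676) turned sign in serum. With the percentile over all probes, 5 and 4 passed in liver for the weeks, 16 for serum diet and 8 for serum minus liver. With quantile normalization the same 4 counts were 5, 4, 13 and 11, and miR-6366 turned in liver (0.1119). Median centring gave 15 for serum diet and 10 for serum minus liver. Without scaling 1 and 1 passed in liver for the weeks, 31 for the serum weeks and 10 for serum minus liver. The mean of probes gave 1 and 1 for the liver weeks, and a floor at the 1st percentile 4 for the liver difference between weeks. Asking for detection on at least 2 arrays gave 18 for serum diet. Asking for it on all arrays, which leaves fewer miRNAs, gave 26 for liver diet (41), 0 and 0 for the liver weeks, 34 for liver minus serum (129) and 14 for serum minus liver. Brightness as a covariate gave 1 for the liver difference between weeks, 17 for serum diet and 76 for liver minus serum. Scaling over lower-numbered probes, chosen after seeing the data, gave 15 for serum diet and 35 for liver diet (25 higher, 10 lower).

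Splits of the liver diet calls into higher and lower were 35 and 20 with the total signal, 28 and 12 with the percentile over all probes and 50 and 8 with brightness as a covariate. In serum this covariate gave 5 and 12.

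For brightness, liver (2) gave 8 without scaling, 8 without scaling among miRNAs detected on all arrays (chosen after seeing the data), 0 with the percentile over all probes, 14 with the number of miRNAs detected as brightness, 49 with deviations from group means, 1 with Spearman's rho and 0 without the 2 farthest arrays. Deviations within a group of 2 are mirror images, so those p-values are too small. Serum (1) gave 80, 47, 5 and 2 for no scaling, no scaling with detection on all arrays, all probes and deviations, 0 with detection on all arrays, and 3 without the 2 farthest arrays.

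With each array left out in turn, counts ranged from 31 to 47 for liver diet, 14 to 31 for serum diet, 0 to 12 and 1 to 12 for the liver weeks, 0 to 2 and 0 to 1 for the serum weeks, 118 to 132 for liver minus serum, 12 to 31 for serum minus liver, and 0 to 3 and 0 to 5 for brightness. The NASH minus control difference in miRNAs detected ranged from 22.5 to 27.5 in liver and from 16.5 to 28.17 in serum. The serum difference of miR-5128 ranged from -0.1063 to 0.1727.

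Arrays that share a replicate number did not deviate together in every week (r of -0.60, 0.42 and 0.49 in liver, 0.55, 0.14 and 0.18 in serum), so the number was not taken as a pairing. One serum array of week 6 NASH has no replicate number in its label, was called replicate 1 here and was left out of the serum fits with the block, so those counts changed in 2 ways at once. With the replicate block 43 passed for liver diet, 19 for serum diet (of 110 tested), 18 for serum minus liver (of 71), 2 and 2 for the liver weeks and 0 and 0 for the serum weeks. With the slide row as a block, counts were 43, 23 and 23 for the first 3. Slide as a random block could not be fitted, because each group lies on 1 slide.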

Other observations

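The arm and the number band of a late-numbered miRNA split the liver values as follows. Of 49 tested miRNAs with a 5p name, 13 rose and 3 fell in liver (median effect 0.10), of 29 with a 3p name 3 rose and 3 fell (-0.02), and of 40 without an arm in their name 11 rose and 8 fell (0.17). In serum 5 of 53, 1 of 24 and 4 of 39 rose, and 8, 2 and 8 fell. Among bands of 1000 numbers in liver, 7 of 20 numbered from 1000 rose and 2 fell, and 4 of 27 numbered from 3000 rose and 5 fell. Above these, 5 of 9 numbered from 4000 up to 6000 rose and 1 fell, 3 of 26 numbered from 6000 rose and 4 fell, and 5 of 28 numbered from 7000 rose and 2 fell. Beside these counts, 26.2% of all 336 miRNAs tested in liver rose and 23.8% fell, and in serum 7.98% and 21.5% of all 326. The splits by arm and band were not made over all miRNAs and were not tested.

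By detection, 18 late-numbered miRNAs were seen in liver on NASH arrays alone and 3 on control arrays alone, and in serum 11 and 0. In liver 63 were detected on more NASH than control arrays and 9 on fewer, and in serum 67 and 8. The same counts were not made over all miRNAs. Lower-numbered miRNAs also gained detections on NASH arrays, from a mean of 188 to 220 in liver and from 190 to 207 in serum. These counts therefore do not show a trait of the late-numbered miRNAs.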
